A study of Mus musculus with 33 samples.

Results

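The Hedgehog pathway genes followed here were 9 of the 37991 genes counted in every library, chosen by symbol and matched through their Ensembl identifiers: the ligands Shh and Ihh, the receptors Ptch1 and Boc, the ligand-binding antagonist Hhip, the transducer Smo and the transcription factors Gli1, Gli2 and Gli3. They were measured by polyA RNA-seq in 33 libraries of E14TG2a cells, a mouse embryonic stem cell line, at 3 stages: undifferentiated mESCs, embryoid bodies (EBs, aggregates that differentiate in suspension without LIF) harvested on day 8, and EBs given 5 µM retinoic acid (RA) from day 4 to day 8 (EBs + RA). At each stage there were 3 wild-type control clones (#1, #4 and #7, transfected with Cas9 plasmid lacking a guide), 3 Neil1 knockout clones (#7, #9 and #11), 3 Neil2 knockout clones (#1, #11 and #14) and 1 Apex1 knockout clone (#46) in technical duplicate. All of them, controls included, went through Cas9 transfection, puromycin selection and single-colony picking. The same clones supplied the EBs without and with RA. NEIL1 and NEIL2 are DNA glycosylases of base excision repair and APEX1 is the endonuclease that acts after them, and the series asked how their loss changes gene expression along differentiation.

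Hedgehog ligands are secreted proteins that bind PTCH1. Without ligand, PTCH1 holds SMO inactive and the GLI proteins, above all GLI3, are processed into repressors; with ligand, SMO acts at the primary cilium and GLI proteins, above all GLI2, activate target genes. Gli1, Ptch1 and Hhip are themselves transcribed in response to the signal, Gli1 as an amplifier and the other two as brakes, so their RNA is the usual readout of pathway activity. In the embryo Sonic hedgehog from notochord and floor plate patterns the ventral neural tube, whereas Indian hedgehog is made by visceral endoderm, including that of EBs, and later by cartilage and gut.

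On NCBIM37, the build of the counts, the ligand genes lay for Shh at chr5:28783355-28793641 (minus strand) and for Ihh at chr1:74991891-74998246 (minus strand). The receptors were Ptch1 at chr13:63610261-63674474 (minus strand) and Boc at chr16:44485158-44559010 (minus strand), with Hhip at chr8:82490014-82581905 (minus strand) and Smo at chr6:29685694-29711365 (plus strand). The transcription factors were Gli1 at chr10:126766945-126778645 (minus strand), Gli2 at chr1:120730709-120950196 (minus strand) and Gli3 at chr13:15555068-15821859 (plus strand). Counts covered the exons of each gene, and 55 exon bases of Gli1 overlap Arhgap9 on the other strand.

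Promoters were available for 6 of the 9 genes in the RefSeq table (GRCm38.p6, windows of 300 bases from 250 before to 50 after the start): Ihh, Ptch1, Hhip, Smo, Gli2 and Gli3. The promoters of the feedback genes Ptch1 and Hhip, both called lower in EBs + RA of Neil1 and Neil2, and of Ihh, called lower in neither, are printed 5′ to 3′ on the gene's strand, with capitals marking the core CCACCC of the GLI consensus or its reverse complement GGGTGG.
Ptch1 (chr13:63565686-63565985, minus strand): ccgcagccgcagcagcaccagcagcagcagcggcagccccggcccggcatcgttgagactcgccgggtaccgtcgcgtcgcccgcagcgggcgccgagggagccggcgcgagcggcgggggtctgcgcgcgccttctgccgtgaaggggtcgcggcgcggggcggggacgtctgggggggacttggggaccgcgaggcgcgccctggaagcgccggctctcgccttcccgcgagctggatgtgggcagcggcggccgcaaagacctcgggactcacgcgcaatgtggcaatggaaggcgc
Hhip (chr8:80057959-80058258, minus strand): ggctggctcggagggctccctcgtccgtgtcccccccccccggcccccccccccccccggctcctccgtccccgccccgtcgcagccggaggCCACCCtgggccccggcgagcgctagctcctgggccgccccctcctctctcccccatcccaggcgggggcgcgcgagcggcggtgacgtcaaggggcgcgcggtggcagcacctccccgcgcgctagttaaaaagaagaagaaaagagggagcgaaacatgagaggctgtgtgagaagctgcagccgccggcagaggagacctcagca
Ihh (chr1:74951623-74951922, minus strand): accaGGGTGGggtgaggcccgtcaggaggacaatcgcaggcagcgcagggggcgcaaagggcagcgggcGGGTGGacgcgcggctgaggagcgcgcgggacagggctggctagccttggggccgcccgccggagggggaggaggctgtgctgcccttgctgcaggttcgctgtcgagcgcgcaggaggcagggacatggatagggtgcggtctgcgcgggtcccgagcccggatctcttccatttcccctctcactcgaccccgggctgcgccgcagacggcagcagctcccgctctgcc
The full GLI consensus GACCACCCA, searched on both strands, was in 0 of the 6 member promoters and in 83 of 32851 promoters of the table (0.253%). Its core, which the consensus contains, was in 5 of the 6, all but Ptch1, against 31.5% of all promoters. The Ptch1 window held 47 CpG dinucleotides, the Gli3 window 39, the Ihh and Hhip windows 30 each, the Gli2 window 28 and the Smo window 17, where the median promoter held 7. These windows are short, and a match or its lack is a description of the letters only.

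Each library held between 21523742 and 48350904 counts on genes (median 26720028). Levels are given as CPM, counts scaled to library size with TMM factors over the 33 libraries. In the shallowest library of each group 3 counts, the floor for a gene at 0, were worth 0.112 to 0.139 CPM. Replicate libraries of independent clones differed by more than counting error in all 27 pairs, and the 3 Apex1 duplicate pairs did as well. The guides placed on NCBIM37 enclosed 16.1% of the exon bases of Neil1, 7.97% of Neil2 and 34% of Apex1, so counts over whole genes do not check the deletions. Apex1 itself was counted at 56.0 to 85.5 CPM in the 6 libraries labelled Apex1 and at 7.69 to 17.9 CPM in the 9 control libraries. It was higher under the knockout label, so directions drawn from this line rest on that label. The Neil1 and Neil2 genes were likewise still counted in their own mutants, at 1.42 to 31.6 and 4.87 to 18.3 CPM. Because RNA came from whole dishes, a lower level can mean fewer cells of a type or less RNA per cell, and these cannot be told apart.

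The control clones gave the course of the pathway during differentiation (plot of levels in the 33 libraries). Per kilobase of exon, the scale on which genes can be compared, Gli1 was the most abundant member in control mESCs at 20.1 ± 1.86 CPM per kb (SD, n = 3 clones). Ptch1 at 13.5 ± 2.61, Gli2 at 13.0 ± 2.1 and Smo at 11.3 ± 0.925 followed, not separated beyond their SDs. Both ligands were at the bottom of this order, Ihh at 0.249 ± 0.0676 and Shh at 0.0245 ± 0.0424 CPM per kb. In control EBs + RA the order had changed: Smo led at 36.2 ± 5.08, ahead of Boc at 12.7 ± 3.54, Gli1 at 10.5 ± 5.07, Ptch1 at 9.23 ± 2.80 and Gli3 at 8.61 ± 0.949 CPM per kb.

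**Figure D1:**
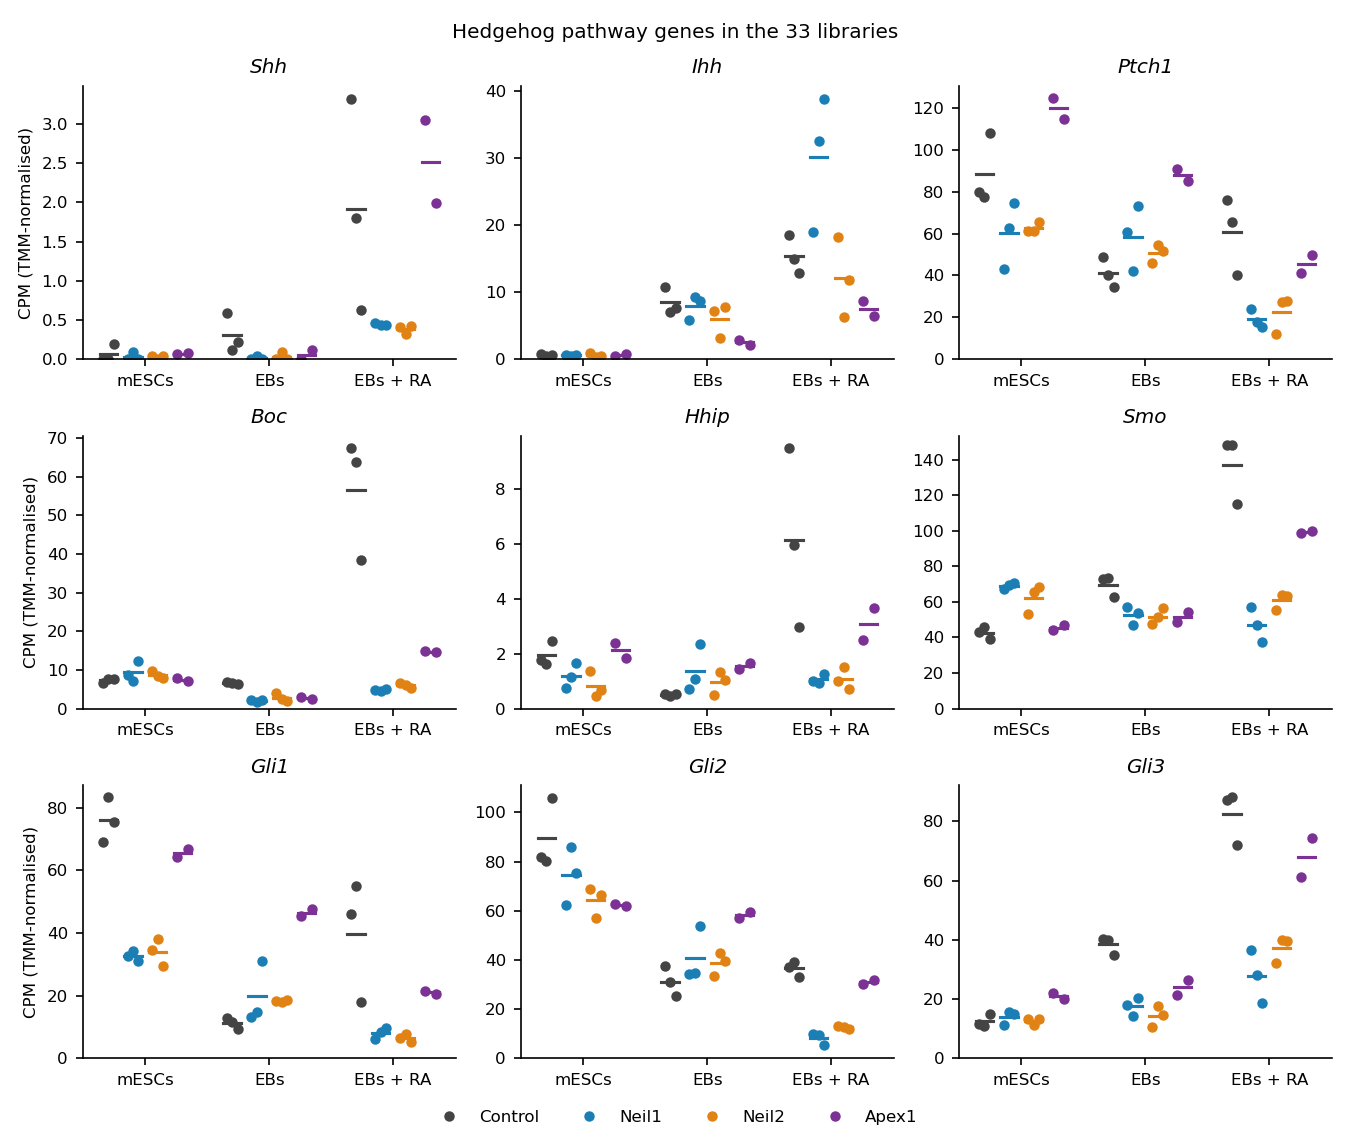
TMM-normalised CPM (y axis, linear from 0, own scale per gene) of each Hedgehog gene in every library, by stage (x axis) and genotype (colour); points are libraries, horizontal lines group means, and the 2 Apex1 points are duplicates of 1 clone. In EBs + RA the Neil1 and Neil2 points lie below every control point for all genes but Ihh, with Boc at 4.51 to 6.67 CPM in the mutants and 38.4 to 67.3 CPM in the controls.

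Between mESCs and EBs, the feedback genes Gli1, Ptch1 and Hhip fell in control cells while Ihh rose. Of 17 other genes known to respond to Hedgehog, 7 rose and 3 fell (median log2 0.42, against -0.01 over all genes). A change was called at a false discovery rate (FDR, the p of edgeR's quasi-likelihood test adjusted by Benjamini-Hochberg over all genes tested) below 0.1 with a log2 fold change beyond 0.5 in size. On that rule 7 of the 9 genes were called, against 38.5% of all 16557 genes tested. Gli1 was at 69.2, 83.3 and 75.3 CPM in mESCs of clones #1, #4 and #7 and at 12.8, 11.6 and 9.45 CPM in their EBs, groups that do not overlap (6.82-fold lower, log2 -2.77 ± 0.33 SE, edgeR FDR 6.1e-05). The other genes lowered were Gli2, the main activator (log2 -1.54, edgeR FDR 2.5e-05), Hhip (-1.95, FDR 0.00411) and Ptch1 (-1.13, FDR 0.00209). Ihh was at 0.804, 0.488 and 0.554 CPM in mESCs and at 10.7, 7.06 and 7.65 CPM in EBs, every EB library far above every mESC library (13.5-fold, log2 3.75 ± 0.29, edgeR FDR 2.6e-06). Smo rose by 0.69 ± 0.14 and Gli3, the main repressor, by 1.61 ± 0.15 on the log2 scale. Boc, a co-receptor that presents ligand to PTCH1, stayed near 7 CPM and was not called (log2 -0.16 ± 0.21). All 15 visceral endoderm markers rose at the same step, their summed level going from 40.3 to 48.0 CPM in control mESCs to 527 to 1041 CPM in EBs. So did 10 of 10 markers of definitive endoderm and gut (164 to 226 CPM, then 740 to 944 CPM), 12 of 15 of mesoderm and mesenchyme and 8 of 10 of parietal endoderm. Of the parietal endoderm markers 1 was called lower. The part of these cell types in the changes was not tested.

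Shh was close to absent before RA. It had 0, 0 and 5 counts in the mESCs and 27, 3 and 6 counts in the EBs of the control clones, with clone #1 highest in EBs, and the step was not called (edgeR FDR 0.125). Without clone #7, which held all of the mESC counts, it was called (edgeR FDR 0.0123), with both remaining mESC libraries at 0.

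RA raised 8 of the 9 genes in control EBs, where 43.1% of all tested genes were called and 22% were raised. Shh was at 3.32, 1.80 and 0.625 CPM in EBs + RA of clones #1, #4 and #7, against 0.584, 0.117 and 0.221 CPM in EBs (log2 2.55 ± 0.75, edgeR FDR 0.0151). Hhip rose most in size, from 0.468 to 0.540 CPM in EBs to 9.50, 5.96 and 2.96 CPM with RA (12.2-fold, log2 3.61 ± 0.43, edgeR FDR 4.3e-05). Boc went from 6.36 to 6.92 CPM to 67.3, 63.7 and 38.4 CPM (8.66-fold, log2 3.11 ± 0.21, edgeR FDR 6.6e-07). In each of these genes clone #7 was the lowest of the treated controls, yet above all 3 untreated libraries. For Shh that gap was slight, 0.625 CPM (19 counts) against 0.584 CPM (27 counts) in untreated clone #1. Gli1 rose by 1.84 ± 0.32, Gli3 by 1.13 ± 0.14 and Smo by 1.01 ± 0.13 on the log2 scale. Among the called genes the smallest changes were those of Ihh (0.89 ± 0.23, edgeR FDR 0.00835) and Ptch1 (0.60 ± 0.22, FDR 0.0451), whose calls were lost when clone #4 was left out (FDR 0.106 and 0.238). For Ptch1 the groups overlapped and the call was also lost without clone #1 (FDR 0.159). Gli2 did not pass (log2 0.26 ± 0.16, edgeR FDR 0.206). In the same libraries the neural crest markers summed to 319 to 406 CPM, against 74.5 to 103 CPM in EBs, where 1 of the 11 was at 0. Pluripotency markers went from 3817 to 4349 CPM to 293 to 376 CPM, 11 of 11 called lower. Of the neural progenitor markers 10 of 13 were called higher and 2 lower. Their sums overlapped, at 468 to 526 CPM in EBs and 476 to 825 CPM with RA. Of the neuron markers 9 of 11 were called higher and 2 lower, with sums of 151 to 163 CPM in EBs and 215 to 324 CPM with RA. The part of these cell types in the changes was not tested.

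In mESCs the one member called in both mutants was Gli1, which was lower. It was at 32.6, 34.1 and 30.9 CPM in Neil1 clones #7, #9 and #11 and at 34.5, 38.0 and 29.5 CPM in Neil2 clones #1, #11 and #14, all below the lowest control at 69.2 CPM. This was 2.36-fold lower in Neil1 (log2 -1.24 ± 0.13, edgeR FDR 0.0326) and 2.28-fold lower in Neil2 (-1.19 ± 0.14, FDR 0.0396). In fits that left out 1 library the Neil1 call held in 4 of 6, being lost without Neil1 clone #7 (FDR 0.17) or control clone #4 (FDR 0.20). The Neil2 call held in 3 of 6, being lost without Neil2 clone #11 (FDR 0.146), Neil2 clone #14 (FDR 0.306) or control clone #4 (FDR 0.169). The log2 values of both stayed between -1.30 and -1.09. All comparisons of a stage share the same control clones, so the values for Neil1 and Neil2 are not independent of each other.

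Smo was the only other member called in mESCs, in Neil1, with 67.1, 69.6 and 70.7 CPM against 42.9, 46.0 and 39.0 CPM in control (log2 0.68 ± 0.12, edgeR FDR 0.0760). The Neil2 clones, at 53.3, 65.7 and 68.3 CPM, were also above all controls but did not pass (0.52 ± 0.13, FDR 0.117), and the Neil1 call held in 1 of 6 fits with a library left out, the one without control clone #7. In all, 2 of 8 tested members were called in Neil1, where 1.82% of all genes were, and 1 of 8 in Neil2, where 1.83% were. These shares were unstable as well. With 1 library left out, the genes called ran from 0 to 2011 in Neil1 (283 in the full fit) and from 1 to 1494 in Neil2 (286). Ptch1 lay below all controls in both mutants without passing the test, at 43.3 to 74.9 CPM in Neil1 and 61.4 to 65.7 CPM in Neil2 against 77.3 to 108 CPM. Hhip was at 0.736 to 1.67 CPM in Neil1, 0.445 to 1.38 CPM in Neil2 and 1.61 to 2.45 CPM in control (edgeR FDR 0.392 and 0.215). Ihh, Boc, Gli2 and Gli3 had log2 values between -0.51 and 0.33 and none was called, and Shh was too low to test.

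In EBs without RA the members split: Boc and Gli3 were lower in both mutants and Gli1 was higher (plot of fold changes by stage). Gli3 was at 40.3, 40.0 and 34.9 CPM in control, 18.1, 14.3 and 20.4 CPM in Neil1 and 10.6, 17.5 and 14.5 CPM in Neil2, so that every mutant library lay below every control. The log2 changes were -1.13 ± 0.14 (edgeR FDR 2.2e-04) and -1.43 ± 0.19 (FDR 0.0028). Boc was at 6.92, 6.71 and 6.36 CPM in control, 2.25, 1.79 and 2.20 CPM in Neil1 and 4.07, 2.43 and 2.01 CPM in Neil2, again without overlap. Its log2 changes were -1.68 ± 0.20 (edgeR FDR 1.7e-04) and -1.22 ± 0.29 (FDR 0.027). The second was lost without Neil2 clone #14 (FDR 0.102) or control clone #1 (FDR 0.10).

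Gli1 in EBs was at 12.8, 11.6 and 9.45 CPM in control, 13.2, 14.8 and 31.2 CPM in Neil1 and 18.3, 17.8 and 18.7 CPM in Neil2. Both mutants lay above the controls, tightly in Neil2 (log2 0.70 ± 0.16, edgeR FDR 0.0266) and in Neil1 with 1 clone, #11, far above the other two (0.80 ± 0.31, FDR 0.0928). Without Neil1 clone #11 the log2 value was 0.30 and the call was lost (FDR 0.199), and it was lost as well without any one of the control clones (FDR 0.142 to 0.251). In Neil2 it was lost without clone #14 (FDR 0.102) or control clone #4 (FDR 0.108).

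Hhip and Ptch1 were called higher in Neil1 EBs, again with clone #11 highest. Hhip was at 0.701, 1.09 and 2.36 CPM in the Neil1 clones and 0.540, 0.468 and 0.515 CPM in control (log2 1.44 ± 0.44, edgeR FDR 0.0301), and without clone #11 its log2 value was 0.81 with FDR 0.144. Ptch1 was at 60.8, 41.9 and 73.0 CPM in Neil1 against 48.7, 40.1 and 34.5 CPM in control, overlapping groups (0.51 ± 0.20, edgeR FDR 0.0936). It held in 2 of 6 fits, with a log2 value of 0.32 without clone #11 (FDR 0.25), and was also lost without Neil1 clone #7 (FDR 0.205), control clone #4 (FDR 0.213) or control clone #7 (FDR 0.242). In Neil2 neither passed, Hhip at 0.488 to 1.32 CPM and Ptch1 at 45.9 to 54.8 CPM, although Hhip was called without Neil2 clone #1 (log2 1.20, edgeR FDR 0.0343).

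Altogether 5 of 8 members tested in EBs were called in Neil1, where 23.5% of all genes were, and 3 of 8 in Neil2, where 16.3% were. Smo lay below all controls in both mutants, at 46.9 to 57.2 CPM in Neil1 and 47.4 to 56.6 CPM in Neil2 against 62.7 to 73.3 CPM, with log2 values of -0.41 and -0.43 that were under the fold limit although the FDRs were 0.0158 and 0.0545 by edgeR. Ihh and Gli2 were not called in either mutant. Shh had 0, 1 and 0 counts in Neil1 EBs and 0, 2 and 0 in Neil2 EBs, too few to test. In the same EBs the 15 mesoderm and mesenchyme markers summed to 619 to 686 CPM in control, 77.8 to 84.0 CPM in Neil1 and 63.0 to 86.8 CPM in Neil2, and the 11 markers of pluripotent cells to 3817 to 4349, 5904 to 7578 and 5560 to 7386 CPM, with none of these genes at 0 throughout a group. Their part in the Hedgehog results was not tested.

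**Figure D2:**
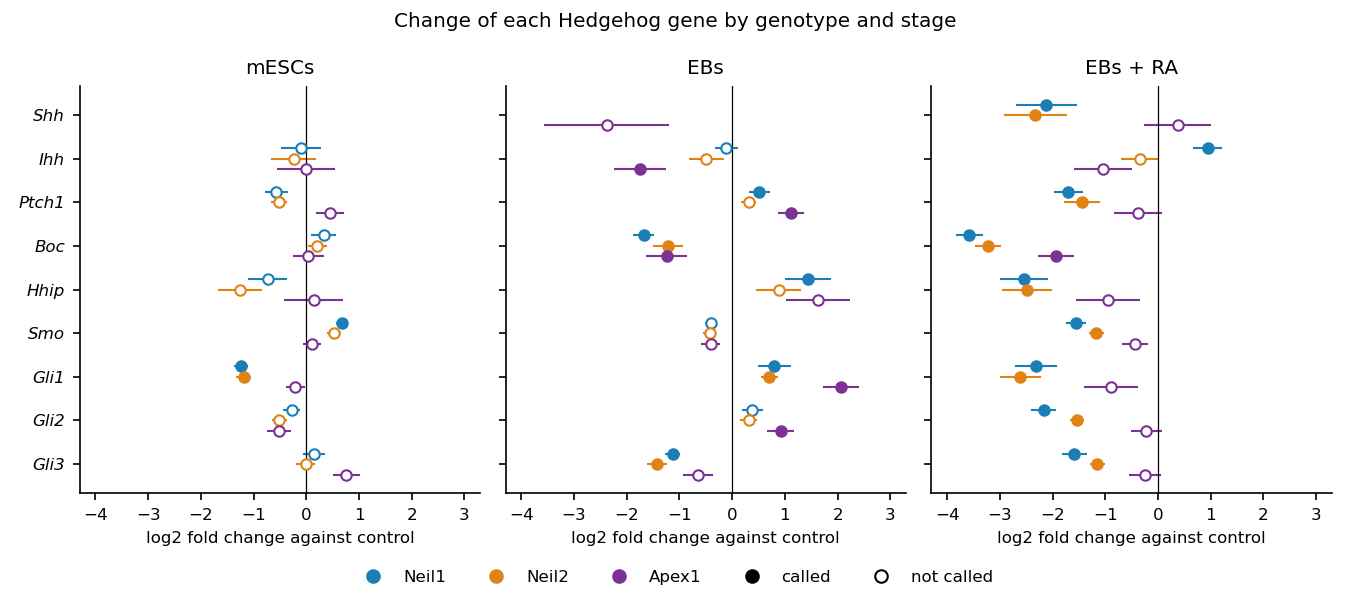
log2 fold change against control ± SE (x axis) of each Hedgehog gene (y axis) in mESCs, EBs and EBs + RA, with filled points called at FDR below 0.1 and a log2 change beyond 0.5; the Apex1 line is 1 clone with duplicates summed, and genes too low to test are left out. In EBs + RA the Neil1 and Neil2 values of 8 genes lie between -3.58 and -1.15, while Ihh is at 0.94 in Neil1 and -0.35 in Neil2.

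In EBs + RA both mutants had low levels of 8 of the 9 genes, from the ligand Shh through the receptors and Smo to all 3 Gli factors. In Neil1 all 9 were called, 8 of them lower, where 41.1% of all genes were called and 19.9% were lower. In Neil2 8 were called, each lower, where 34.9% were called and 16.6% were lower. For these 8 the highest mutant library was below the lowest control library, as it was for 26.6% and 25.6% of all genes. The median log2 change of the 9 members was -2.12 in Neil1 and -1.54 in Neil2, against 0.00 over all genes tested in each comparison. All of these calls held in each of the 6 fits that left out 1 library.

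Boc changed most. Control clones #1, #4 and #7 were at 67.3, 63.7 and 38.4 CPM, Neil1 clones #7, #9 and #11 at 4.94, 4.51 and 4.96 CPM and Neil2 clones #1, #11 and #14 at 6.67, 6.03 and 5.36 CPM, so that both mutants were narrow groups far under even the lowest control. The difference was 11.9-fold in Neil1 (log2 -3.58 ± 0.25, edgeR FDR 1.0e-04) and 9.39-fold in Neil2 (-3.23 ± 0.25, FDR 2.4e-04). Ptch1, the main receptor, was at 76.2, 65.6 and 40.3 CPM in control, 24.1, 17.5 and 15.5 CPM in Neil1 and 11.8, 27.4 and 27.8 CPM in Neil2, lower in each mutant clone than in control clone #7 (log2 -1.70 ± 0.27 and -1.45 ± 0.34, edgeR FDR 0.00248 and 0.0144).

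Of the genes that read out the pathway, Gli1 was at 46.0, 54.9 and 18.1 CPM in control, 6.16, 8.41 and 9.69 CPM in Neil1 and 6.37, 7.77 and 5.32 CPM in Neil2. Control clone #7 again stood well below the other two, but above the highest mutant. The fold differences were 4.99 in Neil1 (log2 -2.32 ± 0.40, edgeR FDR 0.004) and 6.12 in Neil2 (-2.61 ± 0.39, FDR 0.00233). Hhip was at 9.50, 5.96 and 2.96 CPM in control, 0.995, 0.938 and 1.28 CPM in Neil1 and 1.00, 1.52 and 0.731 CPM in Neil2. That was 5.83-fold lower in Neil1 (log2 -2.54 ± 0.45, edgeR FDR 0.00403) and 5.63-fold lower in Neil2 (-2.49 ± 0.48, FDR 0.00619).

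Smo, which passes the signal on from PTCH1, was at 148, 148 and 115 CPM in control, 57.4, 47.2 and 37.2 CPM in Neil1 and 55.4, 63.9 and 63.4 CPM in Neil2 (log2 -1.56 ± 0.19 and -1.17 ± 0.14, edgeR FDR 8.5e-04 and 9.0e-04). Gli2 was at 37.1, 39.3 and 33.1 CPM in control, 9.79, 9.52 and 5.40 CPM in Neil1 and 13.2, 12.7 and 11.8 CPM in Neil2. These groups were far apart, with log2 changes of -2.17 ± 0.24 (edgeR FDR 5.7e-04) and -1.54 ± 0.14 (FDR 3.7e-04). Gli3 was at 87.2, 88.3 and 72.0 CPM in control, 36.6, 28.2 and 18.7 CPM in Neil1 and 32.2, 39.8 and 39.5 CPM in Neil2 (log2 -1.59 ± 0.24 and -1.15 ± 0.14, edgeR FDR 0.00192 and 9.4e-04). Control EBs without RA had 34.9 to 40.3 CPM of Gli3, and every mutant library with RA was within or under that range.

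The ligands differed from each other. Shh, the weakest member, had 103, 49 and 19 counts in control clones #1, #4 and #7, 15, 12 and 11 counts in Neil1 and 11, 10 and 12 counts in Neil2. In CPM that was 3.32, 1.80 and 0.625 in control against 0.433 to 0.466 in Neil1 and 0.317 to 0.418 in Neil2, mutants alike and controls widely spread (log2 -2.12 ± 0.58 and -2.33 ± 0.60, edgeR FDR 0.0236 and 0.0193). Parts of the Shh exons, 291 and 361 bases, overlap lincRNAs on the other strand that were counted as well. HTSeq sets aside reads on overlapping genes, so Shh may be undercounted there. Ihh was at 18.5, 14.9 and 12.9 CPM in control and 18.9, 32.5 and 38.8 CPM in Neil1, with Neil1 clone #7 barely above the highest control (1.92-fold higher, log2 0.94 ± 0.28, edgeR FDR 0.03; 21.2% of all genes were called higher). In Neil2 it was at 18.2, 6.31 and 11.8 CPM, spanning the controls, and was not called (-0.35 ± 0.35, FDR 0.483) except when clone #1 was left out (log2 -0.78, FDR 0.0764).

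Marker genes of other cell types moved in the same libraries. Over all genes 19.9% were called lower and 21.2% higher in Neil1, and 16.6% lower and 18.3% higher in Neil2. The 13 neural progenitor markers summed to 476 to 825 CPM in control EBs + RA, 67.1 to 129 CPM in Neil1 and 116 to 162 CPM in Neil2, and 13 of 13 were called lower in Neil1 and 10 of 13 in Neil2. The 11 neuron markers summed to 215 to 324, 42.2 to 43.7 and 30.0 to 51.7 CPM, all 11 called lower in each mutant. The 11 neural crest markers summed to 319 to 406, 42.3 to 50.5 and 47.8 to 77.0 CPM, 8 of 11 lower in each and 1 higher in Neil2. Visceral endoderm markers summed to 281 to 965 CPM in control, 1055 to 2006 CPM in Neil1, where 8 of 15 were called higher, and 359 to 1244 CPM in Neil2, where 3 of 15 were. Pluripotency markers were at 293 to 376, 586 to 1090 and 628 to 1888 CPM. Mesoderm and mesenchyme markers summed to 364 to 458, 112 to 298 and 83.3 to 138 CPM. Of those tested, 7 of 13 were called lower and 3 higher in Neil1, and 8 of 14 lower and 4 higher in Neil2. Markers of definitive endoderm and gut summed to 366 to 504, 799 to 1430 and 480 to 714 CPM. Of these, 8 of 10 were called higher and 2 lower in Neil1, and 3 of 10 higher and 2 lower in Neil2. Parietal endoderm markers summed to 1965 to 5885 CPM in control and 1851 to 5727 CPM in Neil2. In Neil1 they were at 5369, 7565 and 24205 CPM, with clone #11 far above the others. Of the Neil1 clones, #11 had the lowest Ptch1, Smo, Gli2 and Gli3. It also had the highest Ihh, Boc, Hhip and Gli1, with Shh in between. No marker of these lists was at 0 throughout a group, and the part of these cell types in the Hedgehog values was not tested.

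**Figure D3:**
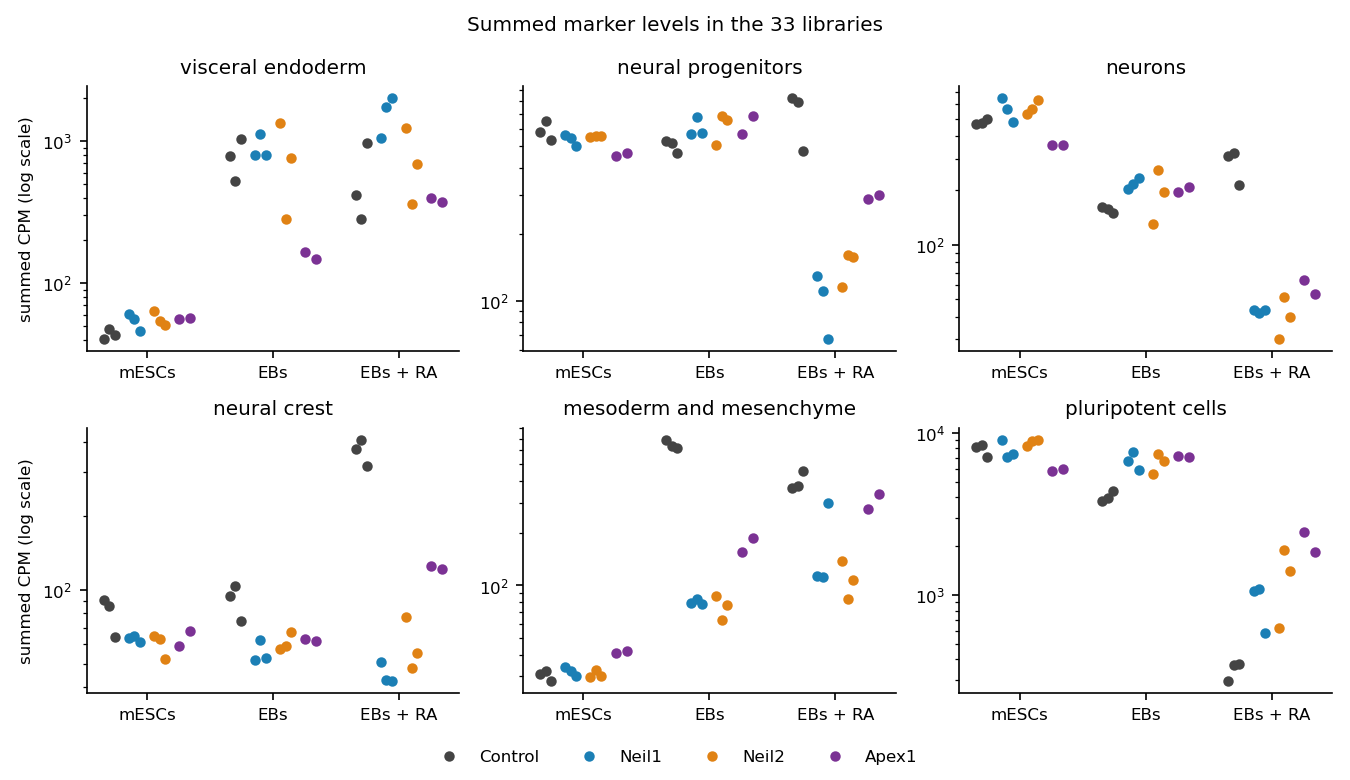
Summed CPM (y axis, log scale) of the measured markers of 6 cell types in each library, by stage (x axis) and genotype (colour). In EBs + RA the neural progenitor sum is 476 to 825 CPM in control and 67.1 to 162 CPM in the Neil1 and Neil2 clones, while the visceral endoderm sum is highest in Neil1 at 1055 to 2006 CPM.

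Neil1 and Neil2 were compared with each other directly. By edgeR 0 of the 9 members were called at any stage, as were 0 genes in all (0% of 15384, 15294 and 15884 genes tested). At an unadjusted p below 0.05, 915 genes in mESCs, 735 in EBs and 1608 in EBs + RA differed by edgeR, and DESeq2 called 3, 1 and 108. The widest gap among the members was that of Ihh in EBs + RA, 18.9 to 38.8 CPM in Neil1 against 6.31 to 18.2 CPM in Neil2, without overlap (log2 1.33 ± 0.41, edgeR FDR 0.486). Gli2, at 5.40 to 9.79 against 11.8 to 13.2 CPM, was next (-0.60 ± 0.25, FDR 0.486). In EBs + RA the log2 values of Shh, Ptch1, Boc, Hhip, Smo, Gli1 and Gli3 lay between -0.41 (Gli3) and 0.33 (Gli1). In mESCs those of the 8 tested members lay between -0.06 (Gli1) and 0.53 (Hhip), and in EBs between -0.45 (Boc) and 0.57 (Hhip), with overlapping groups for each gene at both stages.

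The line labelled Apex1 moved differently from control at the EB stage. Its duplicates were summed into 1 library and tested against the 3 control clones with the spread of all genotypes of the stage, so its own clonal variation is assumed, not measured. In EBs 5 of the 9 members were called, where 8.89% of all genes were. Gli1 stood at 45.3 and 47.5 CPM in the duplicates against 9.45 to 12.8 CPM in control (4.17-fold, log2 2.06 ± 0.34, edgeR FDR 0.00853) and Ptch1 at 90.9 and 85.4 CPM against 34.5 to 48.7 CPM (1.12 ± 0.25, FDR 0.0279). Both were nearer to the level of control mESCs than to that of control EBs, and they were the 2 calls that held whichever control clone was left out. Gli2 was called higher (0.92 ± 0.26, edgeR FDR 0.063), and Ihh, at 2.90 and 2.08 CPM, and Boc, at 3.02 and 2.53 CPM, were called lower (log2 -1.75 ± 0.49 and -1.24 ± 0.39, FDR 0.0648 and 0.0944). The Boc call was lost without any one of the control clones (FDR 0.144 to 0.202), that of Ihh without clone #1 (FDR 0.144) or #4 (FDR 0.111), and that of Gli2 without clone #4 (FDR 0.148) or #7 (FDR 0.132). Hhip, at 1.45 and 1.66 CPM against 0.468 to 0.540 CPM in control, lay above the controls without passing (log2 1.63 ± 0.60, edgeR FDR 0.149). Smo and Gli3 lay below the controls without passing (-0.41 ± 0.18 and -0.65 ± 0.28, FDR 0.211 and 0.204), and Shh had 0 and 3 counts. In these EBs visceral endoderm markers summed to 149 and 165 CPM, under the 527 to 1041 CPM of control, and pluripotency markers to 7101 and 7151 CPM, above the 3817 to 4349 CPM of control. Mesoderm and mesenchyme markers summed to 156 and 188 CPM against 619 to 686 CPM in control. Parietal endoderm markers summed to 705 and 737 CPM against 1875 to 2192 CPM. Neural crest sums were lower as well, neural progenitor and neuron sums higher, and those of definitive endoderm and gut overlapped. The part of these cell types in the Hedgehog values was not tested.

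In EBs + RA the line labelled Apex1 differed from control in Boc alone among the members called, at 14.8 and 14.6 CPM against 38.4 to 67.3 CPM (log2 -1.93 ± 0.34, edgeR FDR 0.0175), 1 of 9 tested where 7.21% of all genes were called. Shh, at 3.05 and 1.99 CPM, was within the control range, and Smo, at 98.9 and 99.8 CPM, was just below it. Gli1, at 21.4 and 20.6 CPM, lay between control clone #7 and the other two and was called only without clone #7 (log2 -1.26, edgeR FDR 0.0553). Ihh, Ptch1, Hhip, Gli2 and Gli3 had log2 values of -1.05, -0.38, -0.95, -0.22 and -0.25, none of them called. In mESCs 0 of 8 tested members were called by edgeR, where 1.98% of genes were, with 2 members at an unadjusted p below 0.05 (Gli2 and Gli3) and 1 call by DESeq2. Gli3, at 21.9 and 20.1 CPM against 10.8 to 14.9 CPM, was called without control clone #7 (log2 0.91, edgeR FDR 0.0391). Gli2 was at -0.52, and Ihh, Ptch1, Boc, Hhip, Smo and Gli1 lay between -0.21 (Gli1) and 0.45 (Ptch1) on the log2 scale, while Shh was too low to test.

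Whether the change between stages itself differed from control was tested for Neil1 and Neil2 as an interaction, called at FDR below 0.1 (plot of differences between stages). For the step from mESCs to EBs, 6 of 8 tested members were called in Neil1 and 7 of 8 in Neil2, where 10.4% of all genes were called in each. Gli1 fell by 2.77 on the log2 scale in control, and the change in the mutants was higher than that by 2.05 ± 0.36 in Neil1 and 1.86 ± 0.20 in Neil2 (edgeR FDR 0.00421 and 1.6e-04), its mESC level being lower and its EB level higher. Smo and Gli3, which rose in control, had differences of -1.07 ± 0.16 and -1.27 ± 0.25 in Neil1 and of -0.96 ± 0.18 and -1.44 ± 0.26 in Neil2. With the clone as a block, which pairs the stages, Neil1 kept 5 calls, losing Ptch1 (edgeR FDR 0.101), and Neil2 had 4, losing Ptch1, Hhip and Gli2 (FDR 0.121, 0.171 and 0.161). When 1 library was left out, Gli1, Smo and Gli3 held in 6 of 6 fits in both mutants, as did Boc in Neil1. Boc in Neil2 held in 3 of 6, being lost without Neil2 clone #14 (edgeR FDR 0.117) or control clone #1 (FDR 0.114) or #4 (FDR 0.123). Ptch1 held in 3 of 6 in each mutant, Hhip in 3 of 6 in Neil1 and 1 of 6 in Neil2, and Gli2 in 2 of 6 in Neil2.

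The effect of RA differed from control in 7 of 9 members in Neil1 (32.2% of all genes) and in 6 of 9 in Neil2 (15.4%), and with the clone as a block the counts were 7 and 6 again. Gli1 rose with RA in control but went from 13.2 to 31.2 CPM to 6.16 to 9.69 CPM in Neil1 and from 17.8 to 18.7 CPM to 5.32 to 7.77 CPM in Neil2, a difference in log2 change of -3.10 ± 0.57 and -3.32 ± 0.44 (edgeR FDR 0.00324 and 4.5e-04). Hhip, Ptch1 and Gli2 were called in the same direction, with differences of -3.97 ± 0.67, -2.19 ± 0.37 and -2.53 ± 0.32 in Neil1 and -3.39 ± 0.67, -1.78 ± 0.40 and -1.87 ± 0.22 in Neil2. Boc still rose with RA in the mutants, from 1.79 to 4.07 CPM to 4.51 to 6.67 CPM over the 6 libraries, but less than in control (-1.88 ± 0.30 and -2.03 ± 0.37). Smo differed by -1.13 ± 0.22 and -0.76 ± 0.18, the latter lost without control clone #1 (edgeR FDR 0.103), and Ihh by 1.06 ± 0.38 in Neil1, a call that held in 1 of 6 fits. Gli3 was not called (-0.44 ± 0.29 and 0.26 ± 0.24): its level was lower in the mutants both without and with RA. Shh, with 0 to 2 counts in mutant EBs, allows no reading of this difference.

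**Figure D4:**
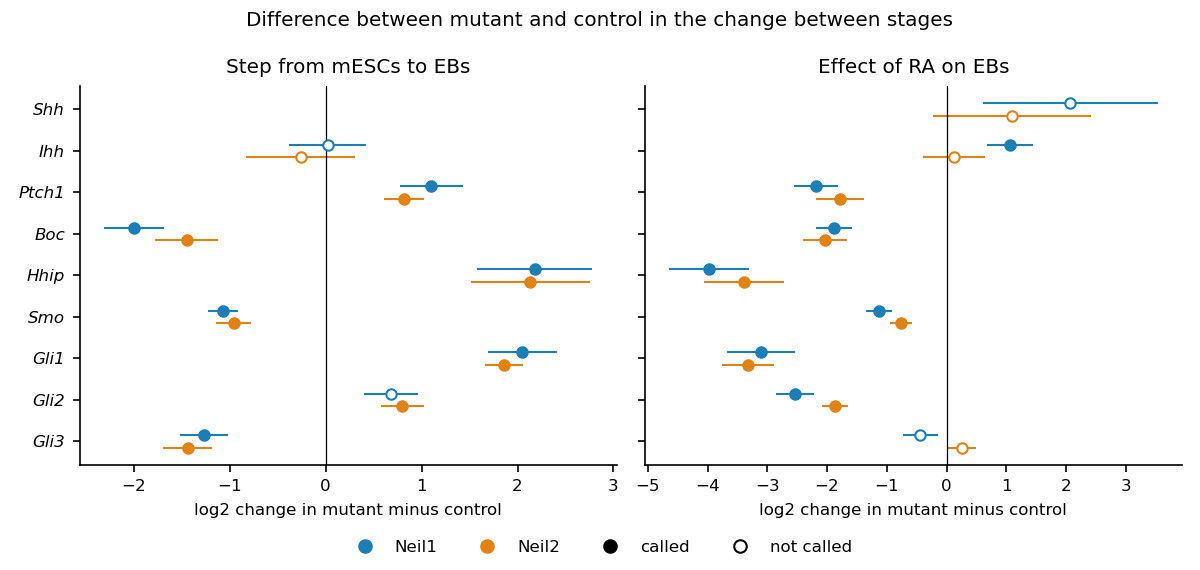
Difference between mutant and control in the log2 change from mESCs to EBs (left) and from EBs to EBs + RA (right) ± SE (x axis) for each Hedgehog gene (y axis), with filled points called at FDR below 0.1. Gli1, Hhip and Ptch1 are on the positive side for the first step, at 0.82 to 2.18, and on the negative side for RA, at -3.97 to -1.78.

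Other genes of the pathway were described by lists, which have no test of their own (plot of list counts). In EBs + RA, of 12 tested genes for ligand processing and reception, 5 were called lower and 2 higher in Neil1 (median log2 -0.47) and 7 lower and 1 higher in Neil2 (-0.95). Over all genes 19.9% were lower and 21.2% higher in Neil1, and 16.6% lower and 18.3% higher in Neil2, with medians of 0.00. Gas1, a co-receptor like Boc, was at 262 ± 17.1 CPM in control, 63.6 ± 10.1 in Neil1 and 89.8 ± 26.3 in Neil2 (SD, n = 3 clones; log2 -2.07 and -1.54, edgeR FDR 1.2e-04 and 0.00147), and Scube1, whose family helps release the lipid-modified ligand, went the same way (-2.52 and -2.14, FDR 8.6e-05 and 2.4e-04). Lrp2, an endocytic receptor that binds Shh and is abundant in visceral endoderm, was the main exception, at 62.1 ± 29.2 CPM in control, 238 ± 55.9 in Neil1 and 111 ± 6.74 in Neil2 (log2 1.92 and 0.85, edgeR FDR 0.00414 and 0.0517). Gpc3, a glypican that competes with PTCH1 for ligand, was lower (-1.77 and -1.34, FDR 9.5e-04 and 0.00184).

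Downstream of SMO, 7 of 16 transduction genes were called lower and 0 higher in each mutant, with medians of -0.43 and -0.48, where 19.9% and 16.6% of all genes were lower. They included Sufu, the main GLI inhibitor, at 45.5 ± 5.21 CPM in control, 21.8 ± 1.62 in Neil1 and 23.5 ± 0.467 in Neil2 (log2 -1.08 and -0.95, edgeR FDR 0.0015 and 0.00168), and Evc, a ciliary partner of SMO (-1.99 and -1.64, FDR 6.4e-04 and 0.00135). Positive and negative regulators were thus both among the lowered genes. Of 20 primary cilium genes, 11 were lower in Neil1 and 8 in Neil2, with 0 higher (19.9% and 16.6% of all genes were lower), and medians were -0.53 and -0.39. Among them was Ift140 of the transport complex (log2 -0.86 and -0.63, edgeR FDR 0.00425 and 0.0109).

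Among genes that Hedgehog is known to induce in one tissue or another, 14 of 17 tested were called lower and 1 higher in Neil1 (median log2 -2.34), and 13 of 18 lower and 1 higher in Neil2 (-1.82). Over all genes 19.9% were lower and 21.2% higher in Neil1, and 16.6% lower and 18.3% higher in Neil2, with medians of 0.00. Some genes of this list are also on the marker list of mesoderm and mesenchyme. Ccnd2, a D cyclin, was at 371 ± 168 CPM in control, 24.1 ± 0.969 in Neil1 and 19.7 ± 3.65 in Neil2 (log2 -3.97 and -4.24, edgeR FDR 2.8e-04 and 3.4e-04), and Sfrp1, a Wnt antagonist, at 176 ± 27.4, 13.2 ± 1.77 and 16.8 ± 7.80 CPM (-3.76 and -3.38, FDR 4.5e-05 and 3.8e-04). Ccnd2 and Mycn were also called lower in both mutants in mESCs, Ccnd2 at 28.0 ± 2.19 CPM in control, 8.23 ± 2.58 in Neil1 and 9.83 ± 3.67 in Neil2 (edgeR FDR 0.0515 and 0.0548), and Mycn at 143 ± 8.27, 71.2 ± 13.7 and 77.4 ± 8.97 CPM (FDR 0.0758 and 0.041). Many of these genes also answer to other signals.

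Patterning genes of the neural tube did not follow one direction on the ventral side, where Hedgehog acts, and were mostly lower on the dorsal side. Of 11 ventral genes tested in EBs + RA, 4 were higher and 4 lower in Neil1 and 3 higher and 4 lower in Neil2 (medians -0.10 and 0.00). Over all genes 21.2% were higher and 19.9% lower in Neil1, and 18.3% higher and 16.6% lower in Neil2. Nkx6-1, a factor of ventral progenitors, was at 2.94 ± 0.520 CPM in control, 0.647 ± 0.123 in Neil1 and 0.887 ± 0.234 in Neil2 (log2 -2.20 and -1.73, edgeR FDR 0.0017 and 0.0045), while Nkx2-9, a factor of the most ventral progenitors, was at 0.433 ± 0.239, 2.98 ± 0.398 and 2.75 ± 0.542 CPM (2.74 and 2.65, FDR 0.00211 and 0.00263). Olig2, the motor neuron progenitor factor, was at 0.930 ± 0.512 CPM in control. It was called lower (edgeR FDR 0.00527 and 0.00255), at 0.0578 ± 0.0505 CPM in Neil1 and 0.0567 ± 0.0173 CPM in Neil2, both under the floor of 0.124 CPM that 3 counts give, so no fold is printed. Of 14 dorsal and intermediate genes, 10 were lower and 1 higher in each mutant (medians -3.35 and -3.07), among them Dbx1 of intermediate progenitors, at 57.4 ± 36.3 CPM in control, 0.0698 ± 0.0299 in Neil1 and 0.0856 ± 0.119 in Neil2, and Pax6, at 98.9 ± 44.5, 5.10 ± 1.70 and 6.90 ± 0.919 CPM. Pax6 and Pax3 are also on the marker lists of neural progenitors and neural crest. The ventral list likewise shares genes with the marker lists of visceral endoderm and of definitive endoderm and gut.

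In EBs without RA, 23.5% and 16.3% of all genes were called. At this stage Gas1 was at 19.1 ± 2.36 CPM in control, 2.56 ± 0.465 in Neil1 and 2.91 ± 0.803 in Neil2 (log2 -2.91 and -2.70, edgeR FDR 4.0e-06 and 4.4e-04). The targets Foxf1a, a gut mesenchyme factor, and Hand2, a heart and limb factor, were lower in both (Foxf1a 5.09 ± 1.86 CPM in control, 0.148 ± 0.0643 in Neil1 and 0.112 ± 0.158 in Neil2), in libraries in which mesoderm and mesenchyme markers summed to less than in every control EB library. Gli1 was thus called higher in these EBs of both mutants, and Foxf1a and Hand2 lower.

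**Figure D5:**
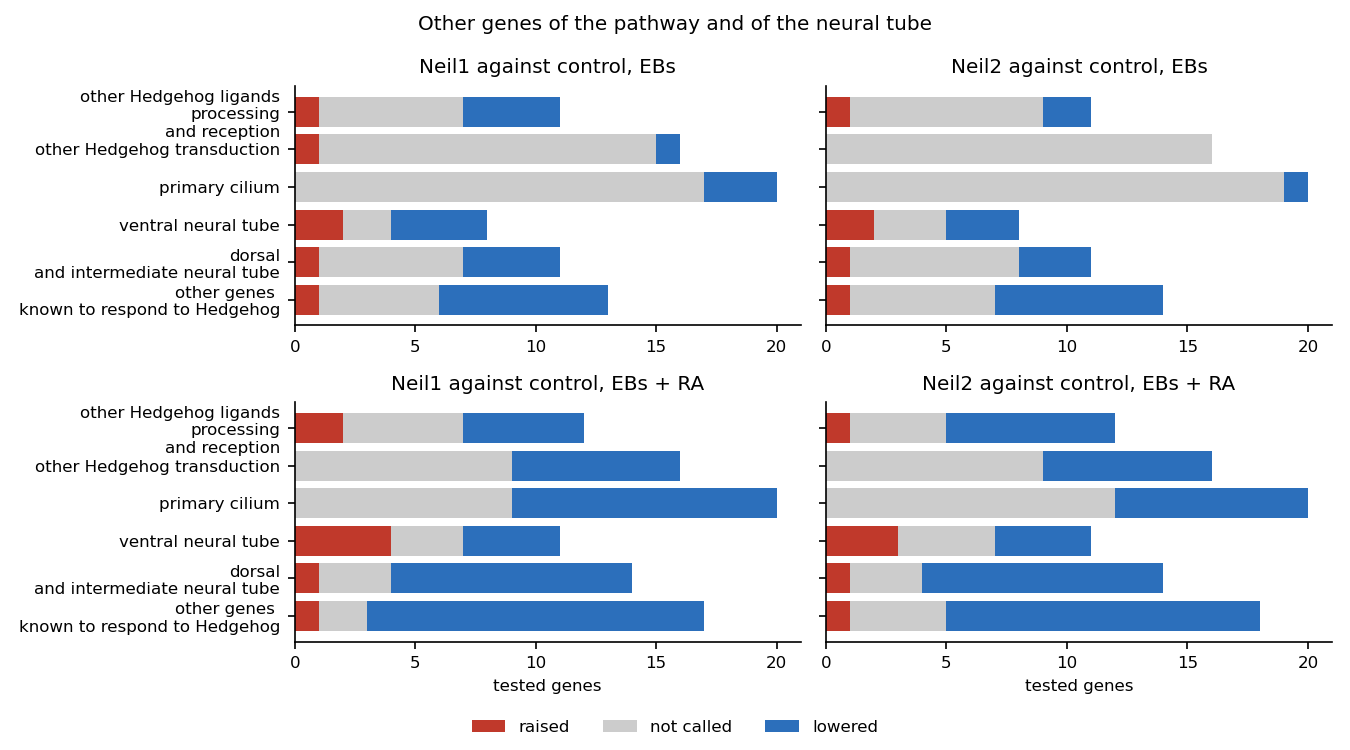
Number of tested genes (x axis) of 6 lists (y axis) called higher (red), called lower (blue) or not called (grey) in Neil1 and Neil2 against control, in EBs (top) and EBs + RA (bottom). In EBs + RA 14 of 17 Neil1 and 13 of 18 Neil2 genes known to respond to Hedgehog are lower, as are 10 of 14 dorsal and intermediate neural tube genes in each, while ventral genes go both ways. Over all genes 19.9% are lower in Neil1 and 16.6% in Neil2.

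Over the 12 group means of stage and genotype, the members fell into patterns of their own. Gli1 and Ptch1 had a Pearson r of 0.94 and Ptch1 and Gli2 of 0.92. Within each genotype the means of all 3 genes were highest in mESCs. Across genotypes this did not hold for Gli1 and Ptch1, which were higher in Apex1 EBs than in Neil1 or Neil2 mESCs. Shh and Gli3, whose means were highest in EBs + RA within each genotype, had an r of 0.93. Shh was under the floor of 3 counts in every mESC group and in the EBs of all mutants. Its r therefore rests largely on values that could not be measured well. Of 14176 genes passing 1 CPM on average over the groups, those most like Ihh were Lcp1 (r = 0.990), Gata4 and Spp2 (0.988 each), those most like Gli3 were Tcf12 (0.986) and Col3a1 (0.983), and those most like Hhip were Nell1 (0.936), Apba2 (0.904) and Pax6 (0.885). These r values describe 12 groups that share control cells, stages and clones, and no p is attached to them.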

How the data were processed

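PolyA RNA-seq libraries (TruSeq RNA v2, unstranded; 51 cycles) were aligned by the authors with TopHat2 2.0.9 and Bowtie2 2.1.0 to NCBIM37/mm9 and counted with HTSeq 0.5.4; the deposited values are raw read counts per Ensembl gene, used as deposited. HTSeq sets aside reads on overlapping genes (1.89% to 2.88% of reads) and reads aligned at several places (11.4% to 19.9%), so shared sequence is undercounted; unassigned summary rows stayed out of library sizes.

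Counts were fitted over the whole table with edgeR 4.0.16 (filterByExpr, TMM, robust quasi-likelihood; R 4.3.3) and adjusted by Benjamini-Hochberg over all tested genes; SE is the log2 fold change divided by the square root of F. DESeq2 1.42.0, other scalings, filters, thresholds and left-out libraries were alternatives. Only the groups of a comparison entered its fit, except for Apex1. On simulated counts for Neil1 against control in EBs + RA, 200 of 200 genes changed 4-fold were recovered, with 23 false calls among 16050 genes. The simulation gave all genes the same spread and changed only genes above a set level. Recovery of weak genes such as Shh, of smaller changes or of genes that vary more between clones was therefore not measured. All 9 members could be named in every comparison; of other lists, up to 4 genes called in both Neil mutants with the largest mean change could be named. The members and lists were chosen with earlier results of these data known. Stages of one clone are paired by cell line (deviations of the same clone between stages correlated at a median r of 0.1, -0.41 to 0.44, over 27 pairs). Of the promoter windows, 6 of 9 members matched by symbol. One gene of the lists is not reported here by name.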

Additional observations from a re-analysis of the deposited data

Results flagged for a closer look

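The change between stages differed between mutant and control, by the interaction test, for the following members (log2 change in the mutant minus that in control; edgeR's quasi-likelihood test, Benjamini-Hochberg FDR below 0.1). From mESCs to EBs in Neil1 the differences were 1.10 for Ptch1, -2.0 for Boc, 2.18 for Hhip, -1.07 for Smo, 2.05 for Gli1 and -1.27 for Gli3. For the same step in Neil2 they were 0.82 for Ptch1, -1.45 for Boc, 2.13 for Hhip, -0.96 for Smo, 1.86 for Gli1, 0.80 for Gli2 and -1.44 for Gli3. For the effect of RA in Neil1 they were 1.06 for Ihh, -2.19 for Ptch1, -1.88 for Boc, -3.97 for Hhip, -1.13 for Smo, -3.10 for Gli1 and -2.53 for Gli2. For the effect of RA in Neil2 they were -1.78 for Ptch1, -2.03 for Boc, -3.39 for Hhip, -0.76 for Smo, -3.32 for Gli1 and -1.87 for Gli2. The Ihh difference in Neil1 (FDR 0.0602) was lost in 5 of the 6 fits that left out 1 library (FDR 0.115 to 0.147). Groups of 3 clones were too small for a search for outlying samples.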

How the results depend on the processing

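When 1 library was left out, 9 to 9 members were called in EBs + RA of Neil1 and 8 to 9 in those of Neil2. For the other comparisons with control these ranges were 0 to 2 (Neil1 mESCs), 0 to 1 (Neil2 mESCs), 2 to 5 (Neil1 EBs), 1 to 4 (Neil2 EBs), and 0 to 1, 2 to 3 and 1 to 2 for Apex1 in mESCs, EBs and EBs + RA; they were 7 to 8 and 6 to 8 for the control stages, 4 to 6 (Neil1) and 3 to 7 (Neil2) for the step from mESCs to EBs, and 6 to 7 and 5 to 6 for the effect of RA. At FDR below 0.05 the counts were 1 in Neil1 mESCs, 3 in Neil1 EBs and 2 in Apex1 EBs. DESeq2 called 4 in Neil2 mESCs and 1 in Apex1 mESCs, and dropping the filter gave 2 in Neil2 mESCs. With the Apex1 duplicates as separate libraries, 2 were called in mESCs and 2 in EBs + RA. Across genotypes the replicate number is only a number (same-numbered clones correlated at a median r of -0.03); as a replicate block it gave 0 members in Neil1 mESCs, 4 in Neil2 mESCs and 3 in Neil1 EBs. Between stages, where the number marks the same clone, the block left 4 members for the Neil2 step and changed no other call except that of Ptch1 in the Neil1 step. The cause of these shifts was not tested.

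Values that changed sign were small or uncalled. When 1 library was left out, log2 values of Ihh ran from -0.25 to 0.14 (Neil1 mESCs), -0.23 to 0.08 (Neil1 EBs), -0.08 to 0.58 (Neil1 against Neil2, mESCs), -0.15 to 0.23 (Apex1 mESCs), -0.29 to 0.27 (Neil1 step), -0.64 to 0.05 (Neil2 step) and -0.13 to 0.37 (RA, Neil2). Those of Gli3 ran from -0.10 to 0.14 (Neil2 mESCs), of Boc from -0.03 to 0.08 (Apex1 mESCs) and of Shh from -0.06 to 1.04 (Apex1 EBs + RA). In Neil1 against Neil2 the ranges were -0.24 to 0.13 for Ptch1, -0.14 to 0.27 for Boc and -0.16 to 0.03 for Gli1 in mESCs. They were -0.05 to 0.11 for Smo, -0.06 to 0.89 for Hhip, -0.38 to 0.33 for Gli1 and -0.16 to 0.19 for Gli2 in EBs, and -0.24 to 0.29 for Hhip in EBs + RA (0.03 with the block). The Ihh step in Neil1 was -0.01 with DESeq2, with RLE size factors and with the block, and -0.03 without filter, and Ihh in Apex1 mESCs was 0.02 without filter. Depth limited Shh, which had at most 27 counts outside EBs + RA.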
